A study of Homo sapiens with 20 samples.

Results

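RN7SK, the small nuclear RNA of the 7SK particle, took 5.25 to 7.38% of all counts in 5 of 20 RNA-seq libraries of SW1990 cells and at most 3.02% in the other 15. SW1990 is an established human pancreatic cancer cell line. The libraries fall into 4 treatment groups of 5, and the 5 libraries with much RN7SK came from just 2 of these groups. Those are the group labelled as clearing Heat and removing Dampness, called heat-clearing below, and the group labelled as activating blood and removing stasis, called blood-activating. The RN7SK-high libraries were those of these 2 treatments with more than 5% of their counts on RN7SK: heat-clearing 01 and 02 and blood-activating 01, 08 and 09. The RN7SK-low libraries were the other 5 of the same 2 treatments: heat-clearing 03, 07 and 09 and blood-activating 04 and 06. The 10 libraries of the remaining treatments, labelled as strengthening spleen and regulating qi-flowing (spleen-strengthening) and as eliminating heat by nourishing yin (yin-nourishing), were outside this comparison and served as reference values. The labels name no agent, dose or time and give no untreated group, and all 20 libraries share the cell line and the preparation from total RNA with ribosomal RNA removed. They do not state whether libraries of a group came from separate cultures, animals or tumours, so every p-value below measures only the spread between these libraries, which may be technical.

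The libraries were chosen by their share of RN7SK, so that share is a description and was not tested. It was 5.25% in heat-clearing 01, 6.07% in heat-clearing 02, 7.38% in blood-activating 01, 5.54% in blood-activating 08 and 5.89% in blood-activating 09. The RN7SK-low libraries stood at 1.78, 2.28, 2.05, 2.16 and 2.29%, and the 10 libraries outside the comparison at 1.57 to 3.02% (median 2.05%). The library nearest above the 5% threshold was heat-clearing 01 at 5.25%, and the nearest below it was in the spleen-strengthening group at 3.02%. No library lay between these values. Total counts were 90 to 109 M in the RN7SK-high libraries and 93.3 to 135 M in the RN7SK-low libraries, so the exact 95% intervals of these shares, which cover counting error only, were narrow, the widest being 7.377 to 7.388% for blood-activating 01. RN7SK pseudogene rows, which can take reads of RN7SK, summed to 402 to 833 CPM (counts scaled to a common library size) in the high class and 99.2 to 146 CPM in the low class, and both they and RN7SK were left out of library sizes and of every test below. Because the classes come from a measured RNA, a p-value says how regularly a gene separates libraries split by RN7SK and tests no treatment.

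RN7SK is made by RNA polymerase III and is the scaffold of a particle in which HEXIM1 holds the elongation factor P-TEFb (the kinase CDK9 with cyclin T1) inactive, while MEPCE caps and LARP7 binds the RNA. RPPH1 is the catalytic RNA of ribonuclease P, which trims the leader off precursor tRNAs, and RMRP is the RNA of the related ribonuclease MRP, which acts on precursor ribosomal RNA. RN7SL1 and RN7SL2 encode the RNA of the signal recognition particle. The spliceosomal snRNAs U1, U2, U4 and U5 are made by RNA polymerase II, scaRNAs guide their modification in Cajal bodies, and mRNAs of replication-dependent histones end in a stem-loop rather than a poly(A) tail. Mitochondrial mRNAs and tRNAs are cut from long transcripts of both strands of the mitochondrial genome.

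The RNAs on which the first results turn are printed below, 5′ to 3′ from the first base and up to base 300, with runs of at least 3 consecutive G or C bases in capitals, so that RNAs which moved in opposite directions can be compared by base composition. They are single-exon transcripts of GENCODE 29 on GRCh38, and none is protein-coding. RN7SK lies at chr6:52995621-52995948 on the plus strand, RPPH1 at chr14:20343075-20343407 on the minus strand and RMRP at chr9:35657751-35658018 on the minus strand. RNU2-1, a U2 gene, lies at chr17:43233787-43233977 on the minus strand. The mitochondrial tRNA genes MT-TY (tyrosine) and MT-TD (aspartate) lie at chrM:5826-5891 on the minus strand and chrM:7518-7585 on the plus strand.
RN7SK: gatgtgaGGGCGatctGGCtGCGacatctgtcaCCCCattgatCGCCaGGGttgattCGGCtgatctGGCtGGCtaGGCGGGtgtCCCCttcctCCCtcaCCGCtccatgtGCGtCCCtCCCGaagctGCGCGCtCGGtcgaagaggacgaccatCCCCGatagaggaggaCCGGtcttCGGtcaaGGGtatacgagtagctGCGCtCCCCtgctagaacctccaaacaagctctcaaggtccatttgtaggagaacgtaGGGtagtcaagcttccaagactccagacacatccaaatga
RPPH1: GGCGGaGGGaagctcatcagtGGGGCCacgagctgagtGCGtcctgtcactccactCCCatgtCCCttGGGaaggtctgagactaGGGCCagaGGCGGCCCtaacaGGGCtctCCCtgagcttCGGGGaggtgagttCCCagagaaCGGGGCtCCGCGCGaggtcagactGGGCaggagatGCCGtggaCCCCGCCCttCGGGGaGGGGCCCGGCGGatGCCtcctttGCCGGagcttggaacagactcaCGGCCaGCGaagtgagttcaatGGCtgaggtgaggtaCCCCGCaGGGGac
RMRP: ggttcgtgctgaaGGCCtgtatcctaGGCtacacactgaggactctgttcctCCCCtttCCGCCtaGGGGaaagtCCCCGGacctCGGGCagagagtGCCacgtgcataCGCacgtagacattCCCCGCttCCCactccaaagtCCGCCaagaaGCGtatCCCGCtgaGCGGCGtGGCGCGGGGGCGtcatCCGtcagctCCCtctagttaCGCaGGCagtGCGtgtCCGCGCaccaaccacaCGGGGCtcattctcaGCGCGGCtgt
RNU2-1: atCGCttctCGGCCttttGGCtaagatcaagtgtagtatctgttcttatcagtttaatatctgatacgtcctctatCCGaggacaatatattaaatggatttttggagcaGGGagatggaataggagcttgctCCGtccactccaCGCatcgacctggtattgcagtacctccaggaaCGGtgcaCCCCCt
MT-TY: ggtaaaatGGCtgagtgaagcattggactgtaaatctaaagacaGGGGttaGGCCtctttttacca
MT-TD: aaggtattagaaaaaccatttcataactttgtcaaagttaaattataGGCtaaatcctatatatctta
RPPH1 and RMRP are alike in composition over their whole length, with 64.6 and 63.1% GC and 41.1 and 41.4% of their bases inside such runs. RNU2-1 has 46.6% GC, and MT-TY has 42.4% GC against 23.5% for MT-TD.

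RPPH1 took a larger share of the RN7SK-high libraries than of any of the other 15. Its share of counts without RN7SK was 0.886, 0.759, 0.950, 0.693 and 0.838% in the RN7SK-high libraries and 0.194, 0.228, 0.257, 0.232 and 0.280% in the RN7SK-low libraries, in the order named above. The 10 libraries outside the comparison spanned 0.178 to 0.280%, so the high class stood above all 15 others. The means were 0.825 ± 0.102% and 0.238 ± 0.0322% (SD, n = 5 each), 3.46-fold apart, by an exact permutation test within treatments p = 0.01 (two-sided, the smallest p that the 100 arrangements allow, 0.0238 after Benjamini-Hochberg adjustment over 19 measures). In edgeR's quasi-likelihood test over all genes RPPH1 was higher by 1.67 in log2 units (SE 0.13, adjusted p = 7.39e-06), by 1.72 within heat-clearing and 1.61 within blood-activating.

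RMRP, the partner RNA with nearly the same GC content, moved the other way, and a part of base composition in this was not tested. With both rows of its symbol summed, it took 0.164, 0.139, 0.140, 0.0912 and 0.126% of counts in the RN7SK-high libraries and 0.206, 0.208, 0.233, 0.216 and 0.249% in the RN7SK-low libraries, and the classes did not overlap. The means were 0.132 ± 0.0266% and 0.222 ± 0.0182% (SD, n = 5 each, exact permutation p = 0.01, adjusted 0.0238), and the libraries outside the comparison spanned 0.196 to 0.285%. The row with nearly all of its counts fell by 0.80 on the log2 scale (SE 0.13, edgeR adjusted p = 0.000727). RN7SL1 and RN7SL2, near-identical copies between which the authors' counting may split reads, together took 3.06 ± 0.611% against 1.60 ± 0.541% (SD, n = 5 each, exact permutation p = 0.02, adjusted 0.0346), and here the classes overlapped. Blood-activating 06, an RN7SK-low library, had 2.54%, above the 2.27% of the RN7SK-high library blood-activating 08. RN7SL1 rose by 0.82 and RN7SL2 by 0.74 (edgeR adjusted p = 0.0147 and 0.00968), but with library-wise offsets for GC content, described below, these values were 0.19 and 0.12 and no longer passed, and without a filter on low counts RN7SL1 was at 0.84 (edgeR adjusted p = 0.0883). Most listed structural RNAs of RNA polymerase III did not pass. Of 12 tested rows 3 rose (RPPH1, RN7SL1 and RN7SL2), 1 fell (RMRP) and 8 did not pass, with a median log2 fold change of 0.315. With GC offsets 1 row was higher, 2 were lower and 9 did not pass.

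**Figure D1:**
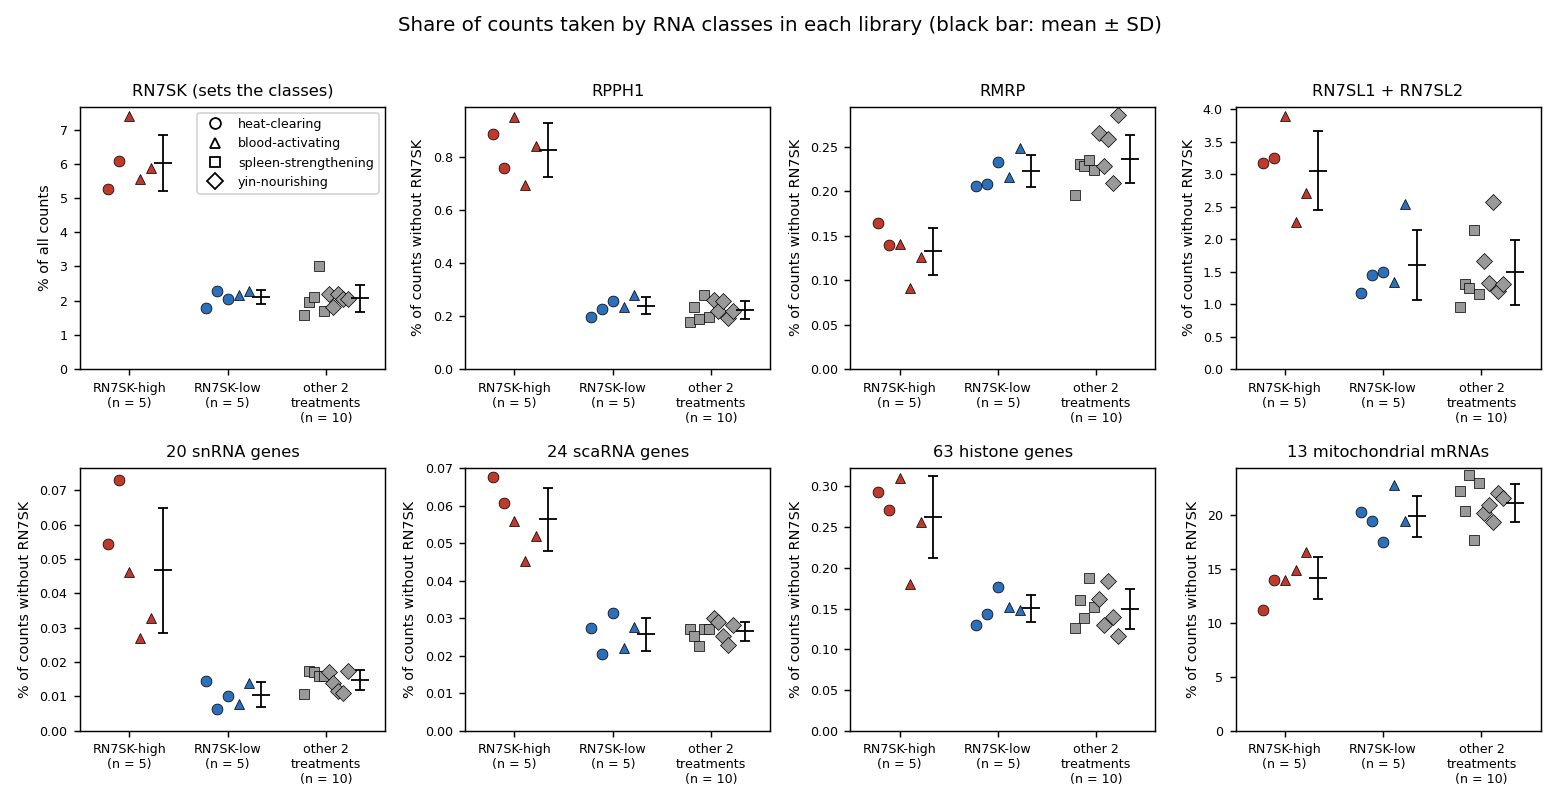
Each panel plots 1 RNA class as a percentage of counts (vertical axis) for the 5 RN7SK-high (red), 5 RN7SK-low (blue) and 10 other libraries (grey), with marker shape giving the treatment and the black bar the mean ± SD. RPPH1, snRNA and scaRNA shares lay above all 15 other libraries in the RN7SK-high class, the RMRP and mitochondrial mRNA shares below them, and RN7SL shares overlapped. Histone shares were at least 0.1805% in the RN7SK-high class, at most 0.1768% in the RN7SK-low class and up to 0.1872% in the other libraries.

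Across all genes, 4911 of 25409 tested rows differed between the classes with treatment as a block (19.3%, edgeR quasi-likelihood test, adjusted p under 0.05), 2732 higher (10.8%) and 2179 lower (8.58%) in the RN7SK-high libraries. The unadjusted p was under 0.05 for 7532 rows. Among 15722 protein-coding rows 15.4% were called higher and 12% lower. With a filter of 1 CPM in 5 libraries 5434 of 14711 rows were called. The 19.3% set beside gene lists below also covers noncoding and weakly expressed rows. It is therefore a low yardstick for lists of expressed protein-coding genes. The median absolute log2 fold change of the called rows was 0.71, and 871 rose and 377 fell by at least 1. In 5587 rows (22.0%) the classes did not overlap within either treatment and lay in the same order, 3029 higher (11.9%) and 2558 lower (10.1%). Without scaling beyond total counts the split was 3601 higher to 1446 lower, and the median of all rows was 0.13 in place of 0.02. Among rows with a mean log2 CPM of 3 or more, the 8 higher rows with the smallest p included RABAC1, which encodes a membrane protein of the Golgi and prenylated Rab acceptor, the histone genes H3C14 and H3C15, the ribosomal protein genes RPL31 and RPL29, SCARNA21 and the processed pseudogene AC008038.1. The 8 lower rows were GLT8D1, THOC7 of the mRNA export complex THO, NDUFC1 of respiratory complex I, HAT1 (histone acetyltransferase), DAD1 of the oligosaccharyltransferase, RER1 of Golgi retrieval, NAA10 (amino-terminal acetyltransferase) and MTATP6P1, a nuclear copy of mitochondrial sequence that can share reads with MT-ATP6.

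RABAC1 stood at 36.3, 35.5, 32.1, 30.7 and 30.4 CPM (here and below after TMM scaling) in the RN7SK-high libraries and at 6.29, 6.96, 7.21, 6.32 and 5.72 CPM in the RN7SK-low libraries. The 10 libraries outside the comparison spanned 3.15 to 9.07 CPM, so no library was intermediate, and the log2 fold change was 2.40 (SE 0.11, edgeR adjusted p = 1.63e-07). GLT8D1, a glycosyltransferase gene, was the mirror image at 24.3, 24.3, 27.4, 26.6 and 24.1 CPM against 82.5, 86.1, 78.1, 75.3 and 79.2 CPM, a fall of 1.65 (SE 0.09, edgeR adjusted p = 4.30e-07), with 70.4 to 109 CPM outside the comparison. HAT1 was at 43.6 ± 3.81 against 103 ± 2.29 CPM (SD, n = 5 each) and DAD1 at 66.5 ± 6.64 against 226 ± 31.7 CPM, both without overlap.

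The difference was ordered by the GC content of each gene's longest annotated transcript, which may not be the one expressed. Over quintiles of 15722 protein-coding rows, from the lowest to the highest GC, the median log2 fold change was -0.29, -0.17, 0.02, 0.28 and 0.60. The share of rows called higher went from 2.23% in the lowest quintile to 37.9% in the highest, and the share called lower from 29.6% to 1.08%. Within heat-clearing these medians ran from -0.32 to 0.67 and within blood-activating from -0.26 to 0.52. Across these rows, which are not independent replicates, the fold change correlated with GC content (Spearman 0.52) and less with transcript length (Spearman -0.15), and across the 79 ribosomal protein genes the correlation with GC content was -0.03. In each library the slope of relative log2 expression per 10% GC was 0.143 to 0.245 in the RN7SK-high class and -0.335 to -0.11 in the RN7SK-low class (exact permutation p = 0.01, adjusted 0.0238), and -0.32 to -0.129 outside the comparison. Expression is relative to the mean of the 10 compared libraries, so the slopes of the compared classes balance by construction and the values outside do not. With offsets that remove this slope per library, 3035 rows were called (1500 higher, 1535 lower), and 2223 of the 4911 calls kept their direction and passed.

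**Figure D2:**
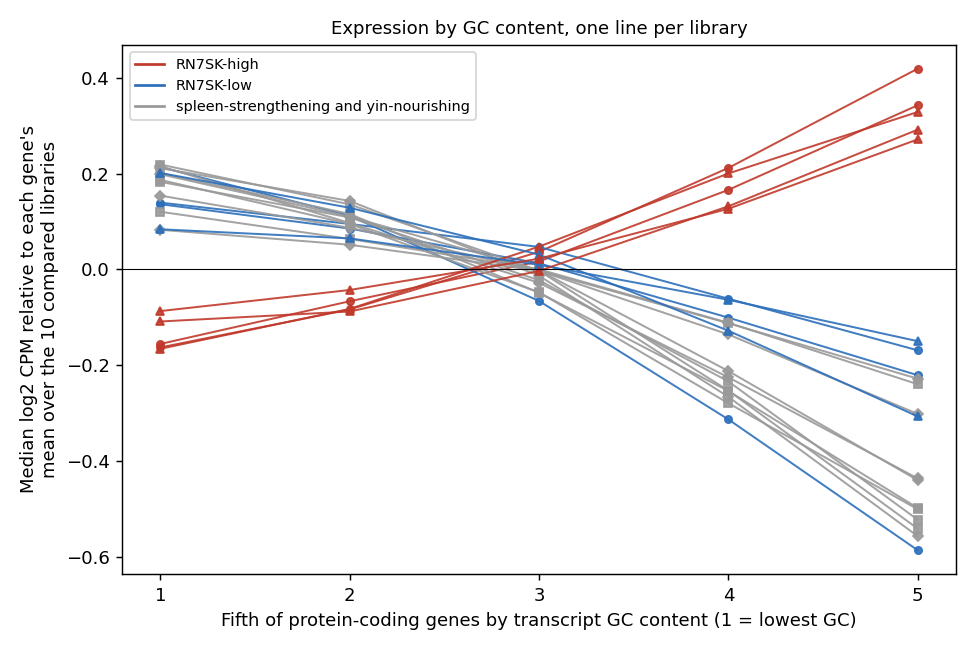
Each line is 1 library and joins the median log2 CPM, as the deviation of each gene from its average in the 10 compared libraries, of 5 groups of protein-coding genes ordered by transcript GC content (horizontal axis, lowest at 1). The 5 RN7SK-high libraries (red) rise from left to right, and the 5 RN7SK-low (blue) and 10 other libraries (grey) fall.

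Genes of U1 and U2 snRNA and the U4 gene RNU4-1 were higher in the RN7SK-high libraries, and 2 U5 genes were lower. Of 20 listed genes 15 passed the filter on low counts, and 9 rose, 2 fell and 4 did not pass the test, among them RNU4-2 (73.3% called against 19.3% of all rows, median log2 fold change 1.52 against 0.02 for all rows). As a group they took 0.0467 ± 0.0183% of counts against 0.0105 ± 0.00369% (SD, n = 5 each, exact permutation p = 0.01, adjusted 0.0238), and the lowest RN7SK-high library, at 0.0270%, exceeded the highest of the other 15, at 0.0174%. RNU2-2P, a second U2 locus, stood at 303, 450, 295, 158 and 216 CPM against 60.6, 31.2, 47.6, 37.0 and 70.4 CPM, a log2 fold change of 2.55 (SE 0.32, edgeR adjusted p = 0.0006499). RNU4-1 rose by 1.47 (edgeR adjusted p = 0.0132) and RNU4-2, also of U4, was at 0.53 (adjusted p = 0.298), both named after their values were seen. RNU2-1 rose by 1.78 and RNVU1-7, a variant U1 gene, by 1.77. The U5 genes RNU5A-1 and RNU5B-1, chosen after their values were seen, fell by 1.57 and 1.94 (edgeR adjusted p = 0.0107 and 0.0161) at low levels, RNU5A-1 from 1.86 ± 1.01 to 0.586 ± 0.215 CPM. Without blood-activating 06 they were at -1.30 and -1.47 and no longer passed (edgeR adjusted p = 0.0529 and 0.0847), nor did RNU5B-1 with the acinar marker level as a covariate (-1.51, adjusted p = 0.0512). Members of the U1 and U2 families are near-identical copies, so their separate values are uncertain and the family is better read as a sum.

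Among the scaRNAs, 16 of 24 were tested, of which 5 rose and 2 fell. That is 43.8% called against 19.3% of all rows. SCARNA21 had 17.8, 20.8, 11.5, 13.6 and 14.9 CPM in the RN7SK-high libraries against 1.79, 0.756, 1.42, 0.499 and 0.702 CPM, a log2 fold change of 4.17 (SE 0.26, edgeR adjusted p = 1.55e-06). SCARNA10 rose by 1.49 and SCARNA5 by 1.58, while SCARNA7 fell by 1.13 from 54.7 ± 8.96 to 24.4 ± 7.62 CPM. As a group scaRNAs took 0.0564 ± 0.00849% of counts against 0.0257 ± 0.00443% (SD, n = 5 each, exact permutation p = 0.01, adjusted 0.0238), without overlap. The box C/D and H/ACA snoRNAs, which guide modification of ribosomal RNA, had no common direction: of 100 tested, 8 rose and 8 fell (16% called against 19.3% of all rows, and 2 and 7 with GC offsets), and their summed share did not pass (exact permutation p = 0.13, adjusted 0.154). SNORD17 rose by 1.43, and SNORD3A, the U3 RNA of ribosomal RNA cleavage, was at 73.6 ± 30.5 against 254 ± 114 CPM and fell by 1.78 (edgeR adjusted p = 0.0137). With the letter that ends each library's title as a covariate, SNORD3A was at -1.71 with an edgeR adjusted p of 0.0619.

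Of 55 tested genes of replication-dependent histones 28 rose, 5 fell and 22 did not pass (60% called against 19.3% of all rows, median 0.64), and their share of counts was 0.262 ± 0.0501% against 0.150 ± 0.0171% (SD, n = 5 each, exact permutation p = 0.02, adjusted 0.0346). By class, 9 of 12 H4 genes, 10 of 15 H2B genes, 5 of 11 H3 genes, 2 of 12 H2A genes and 2 of 5 linker histone genes rose. H3C14, at chr1:149839538-149841193, stood at 112, 95.3, 130, 67.0 and 106 CPM against 10.8, 8.62, 8.19, 9.91 and 9.64 CPM, and the 10 libraries outside the comparison at 6.08 to 11.7 CPM. That is a log2 fold change of 3.45 (SE 0.17, edgeR adjusted p = 1.74e-07), and its near-identical neighbour H3C15 had almost the same counts in each library, so these rows may hold the same reads. H3C12 rose by 1.89. Against this, H4C3 fell by 1.76 (SE 0.14, edgeR adjusted p = 7.39e-06), from 23.1, 24.3, 27.2, 23.0 and 24.9 CPM to 8.17, 7.21, 6.85, 5.08 and 7.75 CPM, H2BC8 by 1.22 and H2AC14 by 1.51. Transcript GC content was 61.2% for H3C14, 49.7% for H4C3 and 62.5% for H2AC14, and a part of base composition was not tested.

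Mitochondrial mRNA took less of the RN7SK-high libraries. Its share was 11.22, 13.95, 13.95, 14.9 and 16.6% against 20.3, 19.5, 17.5, 22.8 and 19.4% (means 14.1 ± 1.95 and 19.9 ± 1.91%, SD, n = 5 each, exact permutation p = 0.01, adjusted 0.0238), with 17.7 to 23.7% outside the comparison. In bulk RNA, fewer cells with a transcript and less of it per cell cannot be told apart, and a share falls when other RNAs take more of the total. Of the 13 mRNAs 9 fell and none rose (69.2% called against 19.3% of all rows). The falls ranged widely: MT-ND4L fell by 1.23, MT-ATP8 by 1.16, MT-CO2 fell by 1.097 and MT-ATP6 by 0.91, while MT-ND1 fell by 0.80, MT-CO1 by 0.63, MT-CYB by 0.59, MT-ND6 by 0.58 and MT-ND2 by 0.52. MT-CO2, a core subunit of cytochrome oxidase, had 11720, 14580, 15840, 15530 and 18520 CPM against 36110, 28320, 26650, 36450 and 31120 CPM (SE 0.14, edgeR adjusted p = 0.000157), so every RN7SK-high library was below every RN7SK-low library. MT-CO3 of the same enzyme was at 10380 ± 2160 against 11610 ± 1940 CPM (log2 fold change -0.20, SE 0.15, edgeR adjusted p = 0.432), and MT-ND3 at 418 ± 67.7 against 370 ± 83.9 CPM (0.18, adjusted p = 0.52). MT-ND4 (-0.33) and MT-ND5 (-0.36) did not pass in the main edgeR fit (adjusted p = 0.0837 and 0.0576). They did pass in DESeq2 (adjusted p = 0.00199 and 0.00164) and in edgeR with upper quartile scaling (adjusted p = 0.0379 and 0.0298). MT-ND2 and MT-ND6 no longer passed without heat-clearing 01 (-0.45 and -0.41, edgeR adjusted p = 0.0536 and 0.103), nor MT-ND6 without heat-clearing 02 (-0.53, adjusted p = 0.0811), and MT-CO1 not with the title letter as a covariate (-0.52, adjusted p = 0.0661). With GC offsets MT-ND2 and MT-ND6 were at -0.35 and -0.40 (edgeR adjusted p = 0.0756 and 0.113).

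The mitochondrial tRNA genes split. Of 24 rRNA and tRNA genes 10 fell and 3 rose (54.2% called against 19.3% of all rows), with a median of -1.53. With GC offsets 6 fell and 3 rose, as with the acinar marker level as a covariate, and with the title letter 14 fell and 3 rose. The 3 that rose, MT-TN, MT-TC and MT-TY, are neighbours on the minus strand. MT-TY had 92.7, 111, 132, 105 and 151 CPM against 37.7, 49.1, 47.2, 80.7 and 65.7 CPM and rose by 1.02 (SE 0.13, edgeR adjusted p = 0.000177), MT-TC by 0.85 and MT-TN by 0.73. In the libraries outside the comparison, which the choice of classes did not use, the same 3 genes had positive slopes on log2 RN7SK share for MT-TY, MT-TC and MT-TN (1.07, 1.06 and 1.31), none of which passed (edgeR adjusted p = 0.579, 0.589 and 0.589). MT-TD fell by 1.91, from 14.9 ± 3.34 to 5.22 ± 3.45 CPM, MT-TP by 1.71 and MT-TT by 1.27. MT-TP is on the minus strand as well, so strand did not separate the directions, and the strand setting is not given in the sources used here. Summed mitochondrial rRNA, which the ribosomal RNA removal targets, was 0.0254 ± 0.0152 against 0.0794 ± 0.0536% of counts (SD, n = 5 each, exact permutation p = 0.1, adjusted 0.136) and the classes overlapped.

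**Figure D3:**
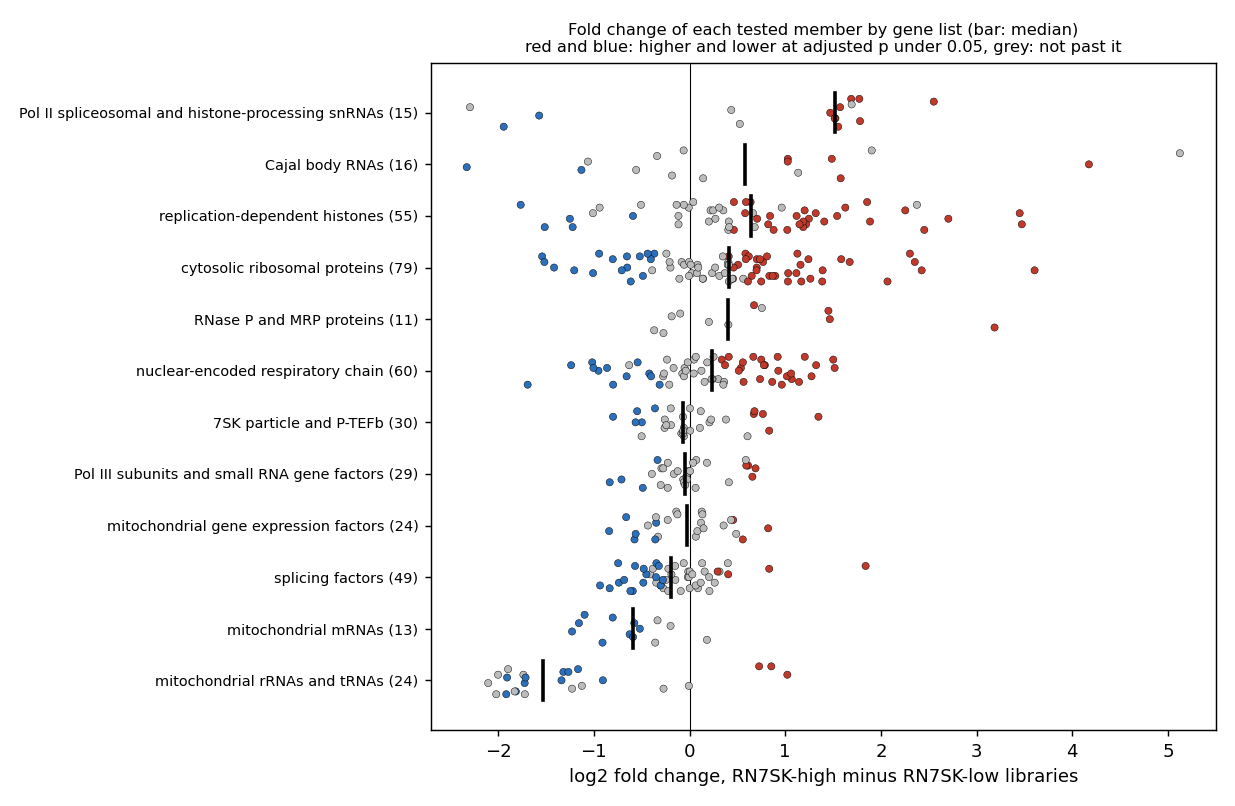
Each point is the log2 fold change of 1 tested row, RN7SK-high minus RN7SK-low (horizontal axis), by gene list with the number of tested rows in brackets, red for higher and blue for lower rows past the edgeR threshold, grey for the rest, and the black bar for the list's median. The medians run from 1.52 for the snRNAs to -1.53 for the mitochondrial rRNAs and tRNAs, and the histone, ribosomal protein and respiratory chain lists hold called rows on both sides.

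Genes of cytosolic ribosomal proteins, usually transcribed and translated as a coordinated set, moved apart from each other. Of 79 tested, 36 rose, 16 fell and 27 did not pass (65.8% called against 19.3% of all rows, median 0.41), with the large and small subunits alike at 21 of 47 and 15 of 32 higher and 9 and 7 lower. Together they took 2.22 ± 0.141% of counts against 1.68 ± 0.26% (SD, n = 5 each, exact permutation p = 0.02, adjusted 0.0346). These shares overlapped, with 1.993% in heat-clearing 02 (RN7SK-high) and 2.022% in heat-clearing 09 (RN7SK-low). RPL31 had 353, 322, 372, 433 and 436 CPM against 90.3, 60.9, 81.5, 62.8 and 88.0 CPM (log2 fold change 2.30, SE 0.14, edgeR adjusted p = 1.55e-06), and 67.4 to 101 CPM outside the comparison. RPL29 rose by 2.07, from 168 ± 30.6 to 730 ± 112 CPM. RPL35, also of the large subunit, fell by 1.54 (SE 0.14, edgeR adjusted p = 1.73e-05), from 204, 143, 196, 134 and 184 CPM to 67.1, 51.8, 48.1, 55.4 and 65.1 CPM, RPL38 by 1.52 and RPS24 by 1.42. The transcripts of RPL35 and RPL31 have 63.7 and 46.8% GC, and a part of base composition in these changes was not tested. Many ribosomal protein genes have processed pseudogenes with near-identical sequence, so reads may be split between rows.

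Nuclear genes of the respiratory chain likewise held both directions, with 25 of 60 higher, 12 lower and 23 not passing (61.7% called against 19.3% of all rows, median 0.24). By complex, 7 of 10 tested complex IV genes rose and 2 fell, 7 of 15 of complex V rose and 1 fell, 7 of 22 of complex I rose and 5 fell, and 3 of 8 of complex III rose and 4 fell. COX4I1 of complex IV rose by 1.52, from 12.2 ± 1.68 to 34.2 ± 6.57 CPM, and COX6B1 by 1.14. COX7B of the same complex fell by 1.69, from 24.6, 22.7, 33.6, 33.7 and 29.2 CPM to 9.30, 9.57, 7.20, 8.13 and 10.01 CPM (SE 0.15, edgeR adjusted p = 1.73e-05), and COX7C by 1.24. ATP5PD of complex V rose by 1.32 (SE 0.09, edgeR adjusted p = 4.16e-06), NDUFA2 of complex I fell by 1.02 and NDUFC1 fell by 1.997. The genes that express mitochondrial DNA had no common direction (24 tested, 3 higher, 6 lower, 37.5% called against 19.3% of all rows, median -0.03). Without scaling beyond total counts 5 were higher and 3 lower. POLG, the mitochondrial DNA polymerase, rose by 0.82 (0.38 with GC offsets, edgeR adjusted p = 0.0569), and FASTKD2, a mitochondrial RNA-binding protein, was at 48.0 ± 3.88 against 88.0 ± 10.7 CPM and fell by 0.84.

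**Figure D4:**
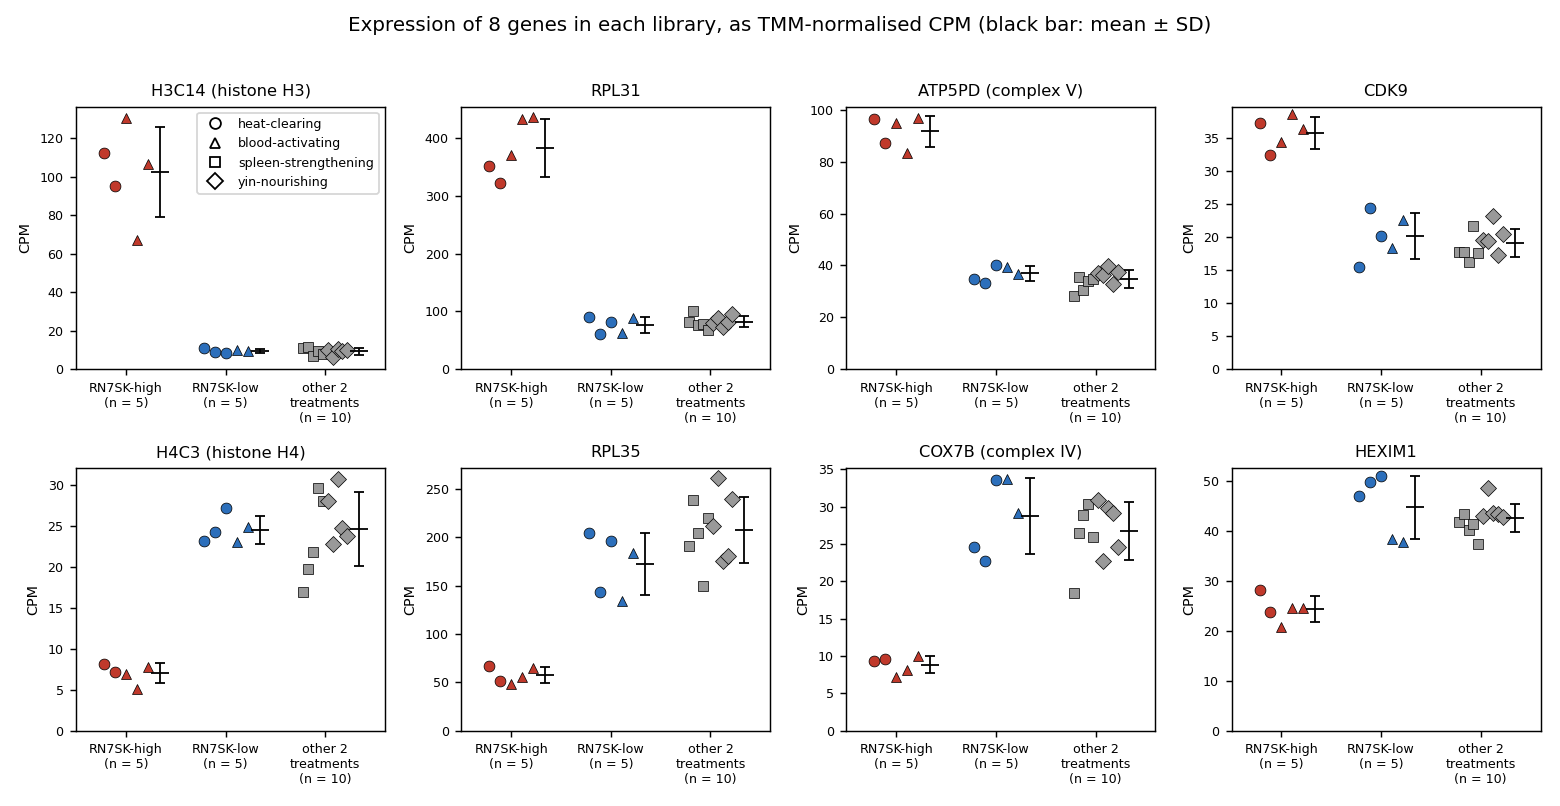
Each panel plots the TMM-normalised CPM of 1 gene (vertical axis, from 0) in the 20 libraries, red for RN7SK-high, blue for RN7SK-low and grey for the other 2 treatments, with marker shape for the treatment and the mean ± SD in black. The top row holds genes that rose and the bottom row genes that fell, in pairs from the same family, chain or particle, and in each the 5 RN7SK-high libraries lie apart from the other 15.

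The mRNAs for proteins of the 7SK particle, of P-TEFb and of factors that work with it had no common direction. Of 30 such genes 5 rose, 5 fell and 20 did not pass (33.3% called against 19.3% of all rows, median -0.06), and 9 rose and 4 fell without scaling beyond total counts. Among protein-coding rows 15.4% were called higher and 12% lower. HEXIM1, the P-TEFb inhibitor, stood at 28.2, 23.8, 20.7, 24.7 and 24.6 CPM against 47.0, 49.8, 51.1, 38.3 and 37.8 CPM and fell by 0.80 (SE 0.11, edgeR adjusted p = 0.000208). LARP7 fell by 0.50, from 36.0 ± 2.32 to 25.9 ± 4.46 CPM, while MEPCE was at 26.5 ± 2.97 against 28.5 ± 4.15 CPM (log2 fold change -0.07, SE 0.13, edgeR adjusted p = 0.811). The kinase CDK9 rose by 0.83, at 37.2, 32.4, 34.3, 38.6 and 36.3 CPM against 15.4, 24.3, 20.2, 18.3 and 22.6 CPM (SE 0.13, edgeR adjusted p = 0.00076), and its partner CCNT1 fell by 0.36. NELFB of the pausing factor NELF rose by 1.35 and MLLT1 of the super elongation complex by 0.67. SYNCRIP, an RNA-binding protein, and DDX21, an RNA helicase, fell by 0.56 and 0.55. With GC offsets LARP7 (-0.21, edgeR adjusted p = 0.318), CCNT1 (-0.14, adjusted p = 0.408) and MLLT1 (adjusted p = 0.997) no longer passed and MEPCE did (-0.65, adjusted p = 0.000362). LARP7 was also lost without heat-clearing 01 (-0.44, adjusted p = 0.0568), and CCNT1 without heat-clearing 02 (-0.31, adjusted p = 0.0902) or blood-activating 04 (-0.34, adjusted p = 0.0627) and without scaling beyond total counts (-0.25, adjusted p = 0.0717).

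Of the 11 protein genes of ribonucleases P and MRP, 4 rose and none fell (median 0.41, 36.4% called against 19.3% of all rows). RPP38 stood at 12.69, 14.25, 13.02, 11.97 and 11.87 CPM against 4.77, 4.68, 5.20, 3.97 and 5.28 CPM and rose by 1.45 (SE 0.14, edgeR adjusted p = 2.36e-05). RPP21, RPP25L and POP7, below the level at which genes were to be named and added after their values were seen, rose by 3.19, 1.47 and 0.67. The polymerase III subunits and factors of small RNA genes were 4 higher, 4 lower and 21 not passing of 29 (27.6% called against 19.3% of all rows), but 1 higher and 7 lower with GC offsets and 5 higher and 2 lower without scaling beyond total counts. Among protein-coding rows 15.4% were called higher and 12% lower, so the polymerase III list did not stand out. SSB, the La protein that binds the ends of new polymerase III transcripts, fell by 0.83 (SE 0.13, edgeR adjusted p = 0.000505) from 50.9 ± 7.502 to 28.0 ± 3.002 CPM, and SNAPC3 of the complex that starts snRNA and RN7SK transcription fell by 0.71.

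In the RNA processing lists, 17 of 49 splicing factor genes fell and 4 rose (42.9% called against 19.3% of all rows, median -0.19), and 9 fell and 8 rose without scaling beyond total counts. RBM25 was at 138 ± 13.8 against 229 ± 18.2 CPM and LUC7L2, which binds the U1 particle, at 43.3 ± 3.36 against 83.9 ± 7.67 CPM, falls of 0.74 and 0.94. SF3A2 and SF3B2 of the U2 particle rose by 1.84 and 0.83. Of 40 ribosome biogenesis genes 8 rose and 11 fell (47.5% called against 19.3% of all rows), while 13 rose and 8 fell without scaling beyond total counts. The helicase DDX47 fell by 1.13 (SE 0.09, edgeR adjusted p = 1.08e-05), while NOP10, a protein of H/ACA snoRNA particles, rose by 0.85 and BOP1 by 1.20. Among 15 listed long noncoding RNAs 4 fell and none rose (26.7% called against 19.3% of all rows), with 2 lower and 1 higher with GC offsets and 2 lower without scaling beyond total counts. Those that fell included TUG1 at 491 ± 20.8 against 706 ± 84.0 CPM and NORAD at 578 ± 78.6 against 842 ± 14.9 CPM (falls of 0.50 and 0.51). With GC offsets BOP1 (0.47) and NORAD (-0.31) no longer passed (edgeR adjusted p = 0.065 and 0.0658).

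Stress and signalling lists were called at 24 to 56.5%, against 19.3% of all rows, mostly in both directions. Of protein-coding rows 15.4% were called higher and 12% lower, so the lists at the low end of this range did not stand out. Of 17 cytosolic heat shock genes 7 fell and 1 rose: HSPA1A, whose copy HSPA1B may share its reads, was at 75.5 ± 9.67 against 182 ± 41.4 CPM and fell by 1.17 (SE 0.12, edgeR adjusted p = 3.77e-05), HSPA4 fell by 0.54, and the heat shock factor HSF1 rose by 0.83. Of 23 NRF2 targets and regulators 9 rose and 4 fell, among them SRXN1 (sulfiredoxin) by 0.79 and KEAP1, the NRF2 repressor, by 0.87, while AKR1C3 fell by 0.71. NF-kB and inflammatory genes were 8 higher and 2 lower of 31, with RELA up by 0.67, the cytokine gene LIF up by 0.52 and REL down by 0.61. Glycolysis genes were 5 higher and none lower of 20, with PFKL and PFKP, both phosphofructokinases, up by 0.97 and 0.56. The integrated stress response had 5 higher and 1 lower of 25, with the glutamine carrier SLC1A5 up by 0.92 and SHMT2 up by 0.80. With GC offsets the calls of HSF1, KEAP1, RELA, LIF, REL, PFKL, PFKP and SHMT2 were lost, and the lists held 1 higher and 3 lower for glycolysis, 2 and 3 for the integrated stress response, 2 and 0 for NF-kB, 4 and 2 for NRF2 and 0 and 5 for heat shock. Without scaling beyond total counts the heat shock list held 4 higher and 7 lower.

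The remaining lists were called at 17.5 to 38.9%, against 19.3% of all rows, and also held both directions. For protein-coding rows these shares were 15.4% higher and 12% lower. Immediate early genes were 6 higher and 4 lower of 31, with NR4A1 up by 0.70 and KLF10 down by 0.93, and with GC offsets none was higher and 7 were lower. Unfolded protein response genes were 3 higher and 4 lower of 22, with the chaperone gene CALR at 681 ± 58.2 against 405 ± 66.3 CPM and the disulfide isomerase PDIA6 at 195 ± 25.3 against 395 ± 28.8 CPM. DNA replication genes were 10 higher and 4 lower of 36, with POLD1 up by 0.89 and RRM2, a ribonucleotide reductase subunit, down by 1.12 (SE 0.12, edgeR adjusted p = 4.25e-05). Genes of G2 and mitosis were called in 7 of 40, 2 higher and 5 lower (17.5% called), with UBE2C up by 1.03 and NUF2 down by 0.93. Cholesterol synthesis genes were 4 higher and 3 lower of 24, with LSS (lanosterol synthase) up by 0.91, and interferon-stimulated genes 4 higher and 2 lower of 28, with the RNA sensor IFIH1 down by 1.05. Hypoxia genes were 4 higher and 2 lower of 28, and the hypoxia and interferon lists, each at 21.4% called, were near the share over all rows. With GC offsets NR4A1 and POLD1 no longer passed, and the lists held 5 higher and 2 lower for G2 and mitosis, 4 and 2 for DNA replication, 3 and 2 for the unfolded protein response, 2 and 2 for cholesterol synthesis, 1 and 2 for interferon-stimulated genes and 1 and 1 for hypoxia. Without scaling beyond total counts G2 and mitosis held 6 higher and 2 lower and the unfolded protein response 5 and 2. DNA replication also held 4 and 2 with the acinar covariate, where interferon-stimulated genes held 3 and 6, and hypoxia 1 and 0 with the title letter.

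The class differences in the 2 treatments, which share no library, mostly had the same sign. The same fit called 2734 rows within heat-clearing (10.8%) and 1912 within blood-activating (7.52%). Of 9717 rows with a mean log2 CPM of 3 or more, 80.4% had the same sign in both, with Spearman 0.79 and Pearson 0.72 across rows. Over all 25409 rows 68.5% had the same sign (Spearman 0.38). List medians within heat-clearing and within blood-activating were 1.94 and 1.09 for the snRNAs and -1.895 and -0.92 for the mitochondrial rRNAs and tRNAs. They were 0.65 and 0.69 for the scaRNAs and -0.14 and 0.12 for the hypoxia genes. The test of the difference between treatments called 2 rows (0.00787%), with 1305 at an unadjusted p under 0.05. With so few libraries in each treatment it can miss differences. FAM220A stood at 0.584, 0.781 and 0.816 CPM in the RN7SK-high and 13.6 and 31.4 CPM in the RN7SK-low libraries of blood-activating, and at 9.34 to 15.8 CPM in all 5 heat-clearing libraries (interaction 5.02 on the log2 scale, edgeR adjusted p = 0.00345). AC245060.4, below the level at which genes were to be named, was at 0 CPM in blood-activating 04 and 06, the 2 RN7SK-low libraries, and at 4.805 to 16.02 CPM in the other 8 (edgeR adjusted p = 0.00101). APOL1 and RNASEK-C17orf49, next by p, did not pass (edgeR adjusted p = 0.424 and 0.797).

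**Figure D5:**
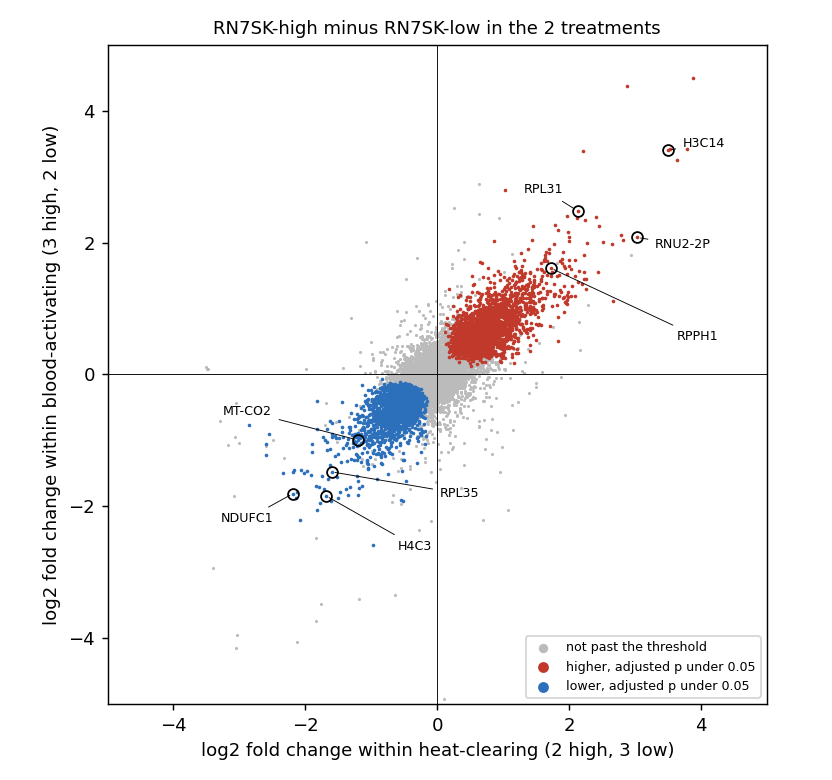
Each point is 1 of 9717 rows with a mean log2 CPM of 3 or more, by its log2 fold change (RN7SK-high minus RN7SK-low) within heat-clearing (horizontal) and within blood-activating (vertical), red and blue for rows called higher and lower in both treatments fitted together. The joint fit favours rows of equal sign, so the place of the called rows in those quadrants follows largely from how they were chosen. The 7 rows beyond 5 on either axis are not drawn.

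In the 10 libraries outside the comparison RN7SK varied less, from 1.57 to 3.02%, and no row passed in a fit of the slope on log2 RN7SK share with treatment as a block (0 of 25686, edgeR, 1740 at an unadjusted p under 0.05). Rows called higher in the RN7SK-high libraries had a positive slope in 72.4% of 2683 cases (median 0.24), and rows called lower in 30.1% of 2175 (median -0.15), against 50.2% of all 23698 rows in both fits. These shares are a description across rows measured in the same 10 libraries. The smallest p belonged to NIPA1 (slope -4.18), ANXA2P2 (1.15), ZNF195 (-1.60), AC140479.4 (-1.79), H2AX (1.54) and HNRNPM (0.99), all with an edgeR adjusted p of 0.579. H2AX, a histone variant gene, and the RNA-binding protein gene HNRNPM were also higher in the RN7SK-high libraries (0.99 and 0.73). AC140479.4 went the other way there, at 0.67, and NIPA1 was at -0.40 with an edgeR adjusted p of 0.778. RPPH1 had a slope of 0.53 (edgeR adjusted p = 0.589). Median slopes were -0.34 for the snRNAs and -0.29 for the scaRNAs, opposite in sign to their medians in the compared libraries (1.52 and 0.58). They were 0.41 for the histones, -0.39 for the mitochondrial mRNAs and -0.70 for the mitochondrial rRNAs and tRNAs, with the same sign as there.

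Defining markers of the pancreatic ductal line were present in all 20 libraries and higher in the RN7SK-high class. The 12 listed genes summed to 5882 to 7741 CPM in the RN7SK-high and 4063 to 5593 CPM in the RN7SK-low libraries (exact permutation p = 0.01, adjusted 0.0238). Of the 12, 6 rose and none fell (50% called against 19.3% of all rows). MUC1 (a mucin) rose by 0.94, CLDN4 (a claudin) by 0.82 and CDH1 (E-cadherin) by 0.66. With GC offsets 2 rose and 1 fell, and MUC1 was at -0.08. Markers of acinar cells, the enzyme-producing cells of the pancreas, summed to 20.8 to 104 CPM in the RN7SK-high libraries and 7.79 to 1090 CPM in the RN7SK-low libraries (exact permutation p = 0.22, adjusted 0.232). Of 25 acinar genes 1 was called (4% against 19.3% of all rows). That was AMY2B, an amylase below the level at which genes were to be named and added after its values were seen. AMY2B was at -2.44 and not called without blood-activating 06 (-1.50, edgeR adjusted p = 0.153) or with the acinar covariate (-1.85, adjusted p = 0.0536). Myeloid and lymphoid markers summed to 146 to 220 CPM against 81.2 to 183 CPM (exact permutation p = 0.01, adjusted 0.0238). Of 11 tested genes only 1 was called, higher, which at 9.09% is below the 19.3% of all rows. Fibroblast markers had 2 of 15 called, both higher, and endothelial markers 1 of 10, higher, which at 13.3 and 10% is below the 19.3% of all rows, and islet, red blood cell and muscle markers none of 6, 2 and 7. The red cell genes HBD, HBG1 and HBG2 and the muscle genes ACTA1 and MYH1 had no count in the 10 compared libraries. The part of these cell types in the results above was not tested beyond a fit with the mean acinar level as covariate, in which 4126 of the 4911 calls kept their direction and passed.

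The classes also differed in the unexplained letter that ends each library's title. It was b in 4 of 5 RN7SK-high libraries and C in 4 of 5 RN7SK-low libraries, and b in 8 and C in 2 of those outside the comparison. Within blood-activating all 3 RN7SK-high libraries carried b and both RN7SK-low libraries C, so letter and class cannot be told apart there. With the letter as a covariate in the 10 libraries, 2458 rows were higher and 1710 lower, and 3637 of the 4911 calls kept their direction and passed. Outside the comparison the 8 libraries with b had RN7SK shares of 1.57 to 2.19%, and the 2 with C had 2.197 and 3.02%.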

How the data were processed

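RNA-seq counts per gene were used for 20 libraries of total RNA, from 4 treatments with 5 libraries each. The authors deposited whole-number counts in 1 table. Per the labels' protocols the kit was directional and followed depletion of ribosomal RNA, and per the submitters' processing notes HISAT2, StringTie and hg38 were used. Not given in the sources used here: versions, annotation, strand setting and the step to whole counts.

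The table has 60656 rows, of which 12589 held no count. RN7SK and 293 RN7SK pseudogene rows were removed from library sizes and tests. Counts of the 10 heat-clearing and blood-activating libraries were filtered (filterByExpr, minimum count 10), scaled by TMM and tested with edgeR 4.0.16 (quasi-likelihood F test, robust, R 4.3.3), with treatment as a block and the RN7SK class as the tested term. Benjamini-Hochberg adjustment ran over all tested rows, with a threshold of 0.05, and SE is the log2 fold change divided by the square root of F. Shares and marker sums, 19 measures, were tested by two-sided exact permutation of the class within treatments (100 arrangements). Printed CPM are TMM-normalised over all 20 libraries. GC content and coordinates came from GENCODE 29 (GRCh38), with 96.3% of tested rows matched. GC content and length are those of the longest transcript of each gene. The edgeR step was tested on simulated data.

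The classes, gene lists and tests were chosen with earlier results of these data known, and histone symbols were matched to GENCODE 29 names after the table was seen. The rule for named genes took those with a mean log2 CPM of 3 or more, and names outside it are marked as such: the 8 with the smallest p in each direction, the 3 per list and direction that passed, those with the 3 smallest interaction p, 3 per direction outside the comparison, and RPPH1, RMRP, the 13 mitochondrial mRNAs, LARP7, MEPCE, HEXIM1, CDK9 and CCNT1 whatever their p. Not every gene under this rule is described, and a few are not reported here. Alternatives were other scalings, filters and tools (DESeq2 1.42.0, limma 3.58.1), covariates, GC offsets (lowess, span 0.5), a minimum fold, and leaving out each library.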

Additional observations from a re-analysis of the deposited data

Results flagged for a closer look

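Within a class of 5 libraries, single libraries stood far from the other 4 in 14 of 258 groups of values tested, and chance gives such a gap in about 1 in 20 groups. In the RN7SK-high class, blood-activating 01 had the endothelial marker sum of 47.8 CPM, HSF1 at 32.8 CPM and SHMT2 at 67.7 CPM, blood-activating 08 had FASTKD2 at 41.1 CPM, and heat-clearing 01 had PFKL at 61.3 CPM and KEAP1 at 41.0 CPM. In the RN7SK-low class, blood-activating 06 stood apart with RN7SL at 2.54% of counts, RN7SL1 at 19930 CPM, RN7SL2 at 5885 CPM, NORAD at 816 CPM and AMY2B at 8.43 CPM. Blood-activating 04 had the islet marker sum of 10.98 CPM and IFIH1 at 106.9 CPM, and heat-clearing 09 had UBE2C at 55.8 CPM.

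The effect of the class differed between treatments, by the interaction test in edgeR, for AC245060.4 (-12.94 on the log2 scale, a fitted value against libraries at 0 and no bound) and for FAM220A (5.02).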

How the results depend on the processing

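The count of 4911 genes (2732 higher, 2179 lower) depended on the setting. With GC offsets it was 3035 (1500 higher), and with a minimum log2 fold change of 1 it was 121 (88 higher, 33 lower). Without scaling beyond total counts 1446 were lower, and the rows separated lower in both treatments fell to 1682 from 2558. Leaving out 1 library gave 3383 to 4796 in all, 1980 to 2681 higher and 1403 to 2123 lower, the lowest without heat-clearing 01. Upper quartile scaling gave 2383 higher and 2798 lower. With the replicate block over all 20 libraries it was 1224 (677 higher, 547 lower), of which 1205 were among the 4911. The block could not be fitted in the 10 libraries alone, and the labels do not say that a replicate number pairs libraries. Of 164 named genes that passed, 80 passed under that block. Outside the comparison the slope called 0 to 1 rows, 1 without yin-nourishing 07. With GC offsets the sign turned for MLLT1 (-0.0015), BRF1 (-0.0463), POLRMT (-0.3261), TNFAIP2 (-0.0311), CDT1 (-0.1731) and MUC1 (-0.0774). The near-empty second RMRP row, which did not pass, ran from -8.7889 to 1.2483 when 1 library was left out, with the positive value without blood-activating 06, and MEPCE, which did not pass, at 0.044 without scaling, 0.0563 with the title letter and from -0.1415 to 0.0138 when 1 library was left out. The causes of these changes were not tested. The 5 libraries a class limit the precision, and depth was at least 81.7 M counts in every library.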
